A study of Mus musculus with 11 samples.

Results

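The GIMAP genes encode GTPases of immunity-associated proteins, a family of small GTP-binding proteins. They were followed here in mouse long-term haematopoietic stem cells (LT-HSCs) and in granulocyte-monocyte progenitors (GMPs), a more differentiated myeloid population. The members were the 9 rows of the deposited gene count table for Gimap1, Gimap1os, Gimap3, Gimap4, Gimap5, Gimap6, Gimap7, Gimap8 and Gimap9, of 54347 genes in all, chosen by name. Gimap1os carried no symbol in the table and was found by its Ensembl identifier. Bone marrow of 4 wild-type female C57BL/6NTac mice, whose age is not given in the labels, was sorted after removal of lineage-positive cells. The populations sequenced were EMCN+ LT-HSCs (4 libraries), EMCN- LT-HSCs (3 libraries) and GMPs (4 libraries), each library of a population from a separate mouse. LT-HSCs were sorted as CD150-positive, CD48-negative cells of the Lin-, Sca-1+, c-Kit+ (LSK) gate and divided by surface endomucin (EMCN), a sialomucin of endothelium that also marks stem cells. A further EMCN- library was left out by the submitters as of poor quality, and mouse 3 has no EMCN- library here.

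GIMAP proteins share a GTP-binding domain of the AIG1 type and are best known from lymphocytes, where several members support cell survival. Several members are anchored in intracellular membranes, and loss of GIMAP1 or GIMAP5 in mice depletes peripheral lymphocytes. In mice GIMAP5 is also known to be needed for the upkeep of haematopoietic stem cells.

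In GENCODE M21 on GRCm38 the 9 members lie side by side within 123.6 kb of chromosome 6, from 48647234 to 48770851. They run in the order Gimap8, Gimap9, Gimap4, Gimap6, Gimap7, Gimap1os, Gimap1, Gimap5 and Gimap3, with 6 on the plus strand and Gimap6, Gimap1os and Gimap3 on the minus strand. Gimap1os, a noncoding transcript, overlaps Gimap1 by 2391 bases on the opposite strand, and 33.9% of the 31-base words of each were shared with the other when both strands were counted. The strand setting of the authors' counting is not given in the sources used here, so reads of Gimap1 and Gimap1os cannot be told apart with certainty. Gimap3 shared 13.2% of its 31-base words with Gimap5, its closest relative, and Gimap5 shared 8.02% with Gimap3, so part of their counts rests on how the authors' estimation divided common reads. Gimap4, Gimap6, Gimap7, Gimap8 and Gimap9 shared 0% with any other member. The predicted gene Gm28053, which overlaps Gimap7, Gimap1os, Gimap1 and Gimap5, shared up to 5.43% of a member's words, the most for Gimap1.

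Promoter sequences are given for the members on which the results below turn. Gimap9 had by far the most GMP counts, Gimap1 and Gimap6 were the most abundant members in LT-HSCs, and Gimap4 differed most between the LT-HSC fractions. Each window runs 5′ to 3′ on the gene's own strand from 250 bases before to 50 after a start in RefSeq (GRCm38.p6). The windows are chr6:48675885-48676184 on the plus strand for Gimap9, chr6:48738797-48739096 on the plus strand for Gimap1, chr6:48708195-48708494 on the minus strand for Gimap6 and chr6:48684328-48684627 on the plus strand for Gimap4. Capitals mark matches on either strand to short motifs for the ETS family, GGAAGT, for the RUNX family, TGTGGT as well as TGCGGT, for the GATA family, AGATAA, for the factor IKAROS, TGGGAA, and for a box of TATA type, TATAAA.
Gimap9: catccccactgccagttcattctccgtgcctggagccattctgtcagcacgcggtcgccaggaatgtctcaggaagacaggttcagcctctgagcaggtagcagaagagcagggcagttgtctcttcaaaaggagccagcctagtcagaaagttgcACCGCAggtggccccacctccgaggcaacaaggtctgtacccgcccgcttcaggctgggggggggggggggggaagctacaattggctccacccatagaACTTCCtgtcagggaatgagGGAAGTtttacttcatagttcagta
Gimap1: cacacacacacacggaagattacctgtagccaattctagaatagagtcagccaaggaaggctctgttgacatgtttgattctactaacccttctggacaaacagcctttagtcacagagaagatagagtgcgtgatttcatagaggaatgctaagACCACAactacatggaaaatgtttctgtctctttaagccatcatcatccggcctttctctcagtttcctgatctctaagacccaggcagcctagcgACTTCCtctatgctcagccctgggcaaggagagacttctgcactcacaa
Gimap6: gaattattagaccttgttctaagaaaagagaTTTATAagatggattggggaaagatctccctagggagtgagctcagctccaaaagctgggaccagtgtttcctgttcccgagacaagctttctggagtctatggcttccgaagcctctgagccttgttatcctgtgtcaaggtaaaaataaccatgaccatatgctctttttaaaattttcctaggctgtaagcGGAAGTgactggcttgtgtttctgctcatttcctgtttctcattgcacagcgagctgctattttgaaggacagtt
Gimap4: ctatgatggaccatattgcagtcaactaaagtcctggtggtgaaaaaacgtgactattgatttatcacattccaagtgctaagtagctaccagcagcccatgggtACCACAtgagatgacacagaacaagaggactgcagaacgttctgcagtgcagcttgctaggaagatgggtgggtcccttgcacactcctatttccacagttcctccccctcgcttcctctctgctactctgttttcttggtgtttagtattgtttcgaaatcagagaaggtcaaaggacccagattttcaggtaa

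RefSeq gave 9 such windows for 8 of the members, 2 of them for Gimap8 and none for Gimap1os. The ETS letters stood in 4 of the 9 windows, those of Gimap9, Gimap1, Gimap6 and Gimap5, against 23.8% of 32851 mouse promoter windows of the same length. RUNX letters stood in 4 of 9, those of Gimap9, Gimap4, Gimap7 and Gimap1, against 22.4% of all windows, so Gimap9 and Gimap1 held both. GATA letters stood in 0 of 9 (11.2% of all windows), IKAROS letters in 1 of 9, for Gimap3 (25.6%), and TATA letters in 1 of 9, for Gimap6 (13.6%). The motifs searched do not overlap each other in these windows. GC content ran from 43.3% for Gimap6 to 57.3% for Gimap9 with a median of 48%, against a median of 52.7% over all windows. CpG pairs numbered 2 to 8 with a median of 4, against a median of 7, and Gimap9 was at the top of the family in both. These matches are a description of the letters in the windows.

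The LT-HSC and GMP libraries carried the markers of those cell types. Summed over 11 LT-HSC markers, the level was 1557 to 1861 CPM (counts per M, or 1e6, counts) in EMCN+ LT-HSCs, 1240 to 1459 CPM in EMCN- LT-HSCs and 161.9 to 225 CPM in GMPs. Over 12 GMP markers it was 492 to 695 CPM in EMCN+ LT-HSCs, 655 to 715 CPM in EMCN- LT-HSCs and 18060 to 22110 CPM in GMPs. Nearly all of the LT-HSC sum was Calr, a chaperone gene of many cell types, at 544 CPM in EMCN+ LT-HSCs and 648 CPM in EMCN- LT-HSCs, while Mpo averaged 0.9805 CPM in EMCN+ LT-HSCs and 3.845 CPM in EMCN- LT-HSCs. Emcn itself averaged 26.2 CPM in EMCN+ LT-HSCs, 14.4 CPM in EMCN- LT-HSCs and 0.521 CPM in GMPs, so its transcript was present in cells sorted as EMCN-. It was not called between the LT-HSC fractions by edgeR at an adjusted p of 0.05. Libraries held 3.63 to 11.1 M estimated counts, and a gene at 0 could hold up to 3 counts, or 0.209 to 0.705 CPM.

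GIMAP RNA was a feature of both LT-HSC fractions and was low in GMPs. CPM are scaled with TMM factors of edgeR throughout. The 9 members together made up 456, 482, 524 and 462 CPM in the EMCN+ libraries of mice 1 to 4, against 331, 397.5 and 401.5 CPM in the EMCN- libraries of mice 1, 2 and 4 and 32.3, 12.4, 21.9 and 17.7 CPM in the GMP libraries of mice 1 to 4. The 3 ranges did not overlap. These are bulk libraries, in which fewer cells that express a gene and less RNA per cell cannot be told apart.

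**Figure D1:**
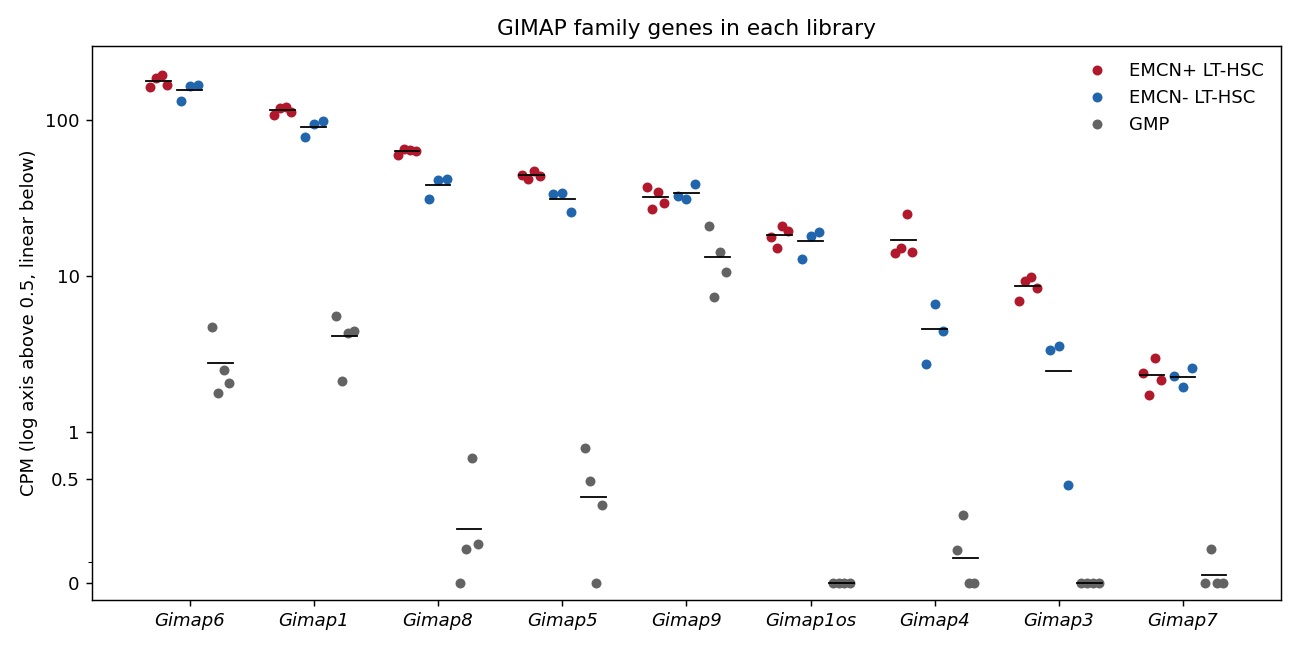
CPM of each GIMAP gene in each of the 11 libraries (points; bars are means; log axis above 0.5 CPM, linear below), EMCN+ LT-HSCs left, EMCN- LT-HSCs in the middle and GMPs right. The GMP points lie below all LT-HSC points of every gene, and nearest to them for Gimap9.

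Levels of different genes were compared only per length, as counts per kb of the longest annotated transcript scaled to a sum of 1 M. No TMM factor enters this scale, so it serves to compare genes within a group and not groups with each other. On this scale Gimap1 and Gimap6 led in LT-HSCs. GIMAP1 is a membrane-anchored member needed by mature T and B cells in mice, and GIMAP6 is a cytosolic member that binds GABARAPL2 and is drawn to autophagosomes. The per-length level of Gimap1 was 130 ± 17.3 in EMCN+ LT-HSCs (SD, n = 4) and 83.7 ± 9.22 in EMCN- LT-HSCs (SD, n = 3). For Gimap6 the per-length level was 101 ± 17.1 in EMCN+ LT-HSCs and 72.9 ± 7.24 in EMCN- LT-HSCs. Their ranges overlapped each other in each fraction and lay above all other members.

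Gimap9 came next, with a per-length level of 42.0 ± 9.20 in EMCN+ LT-HSCs and 37.3 ± 7.66 in EMCN- LT-HSCs. In CPM the order of the fractions was the opposite, with means of 32.2 CPM in EMCN+ LT-HSCs and 34.3 CPM in EMCN- LT-HSCs. In EMCN+ LT-HSCs its range overlapped that of Gimap8 (35.9 ± 3.80), the longest protein of the family with several GTP-binding domains, and the range of Gimap8 overlapped that of Gimap5 (34.3 ± 4.70), the lysosomal survival factor of T cells. In EMCN- LT-HSCs Gimap9 stood above Gimap5 (20.1 ± 4.55) and Gimap8 (17.9 ± 1.76), which overlapped each other. The lowest per-length levels in EMCN+ LT-HSCs were 17.4 ± 7.22 for Gimap4, 17.03 ± 3.38 for Gimap1os, 7.26 ± 1.56 for Gimap3 and 3.33 ± 1.06 for Gimap7. Of these neighbours in order, Gimap4 and Gimap1os overlapped, while Gimap1os, Gimap3 and Gimap7 were separate. In EMCN- LT-HSCs the order was Gimap1os (12.8 ± 1.88), Gimap4 (3.67 ± 0.981), Gimap7 (2.71 ± 0.686) and Gimap3 (1.72 ± 1.24), where only Gimap1os stood apart from its neighbours.

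In GMPs the order changed and Gimap9 led, with a per-length level of 6.80 ± 3.35 (SD, n = 4). Its range there did not overlap that of Gimap1 (1.80 ± 0.732). Gimap1 overlapped Gimap6 (0.614 ± 0.332). Below them stood Gimap5 at 0.125 ± 0.102, Gimap8 at 0.0548, Gimap4 at 0.0438 and Gimap7 at 0.0197, each overlapping the next, and Gimap3 and Gimap1os had 0 counts in all 4 GMP libraries.

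**Figure D2:**
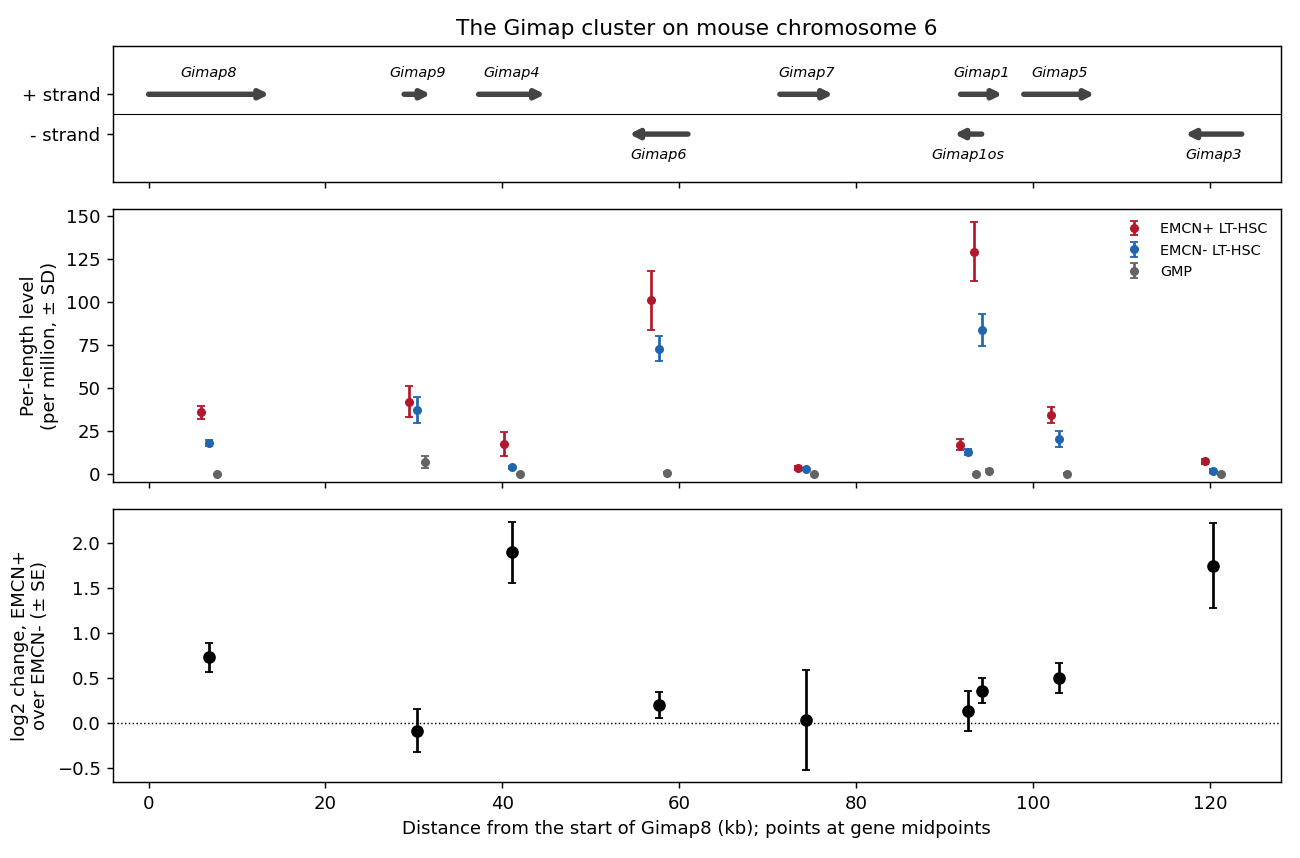
The Gimap cluster drawn to scale in kb from the start of Gimap8, with transcription direction (top), mean per-length level ± SD in EMCN+ LT-HSCs (n = 4), EMCN- LT-HSCs (n = 3) and GMPs (n = 4) (middle) and the log2 change of EMCN+ over EMCN- LT-HSCs ± SE (bottom). Gimap1 and Gimap6 have the highest levels in LT-HSCs, while the largest changes are at Gimap4 and Gimap3, which are not neighbours. Per-length levels carry no TMM factor and are for comparing genes within a group.

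The comparison of each LT-HSC fraction with GMPs asks how the family stands in stem cells relative to a committed progenitor. Gimap1, Gimap6 and Gimap9 passed the low-count filter through GMP libraries as well. These members were called higher in EMCN+ LT-HSCs than in GMPs by edgeR's quasi-likelihood test (Benjamini-Hochberg adjusted p of 0.05 or less over 14915 genes). In that comparison 31.9% of all genes tested were called higher and 29.4% lower. The same members were also called higher in EMCN- LT-HSCs than in GMPs, where 28.3% of all genes were, and 24.4% were lower. No member overlapped between groups in either comparison, a pattern of 29.6% of all genes for EMCN+ LT-HSCs above GMPs and 28.7% for EMCN- LT-HSCs above GMPs. The other 6 members passed the low-count filter through LT-HSC libraries alone, so their separation from GMPs is a description. Both comparisons use the same GMP libraries.

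Gimap6 was at 165, 186, 196 and 167.5 CPM in the EMCN+ libraries of mice 1 to 4, compared with 4.73, 1.795, 2.50 and 2.05 CPM in the GMP libraries. Every EMCN+ library lay far above every GMP library, with a log2 difference of 5.98 ± 0.20 (SE; edgeR adjusted p = 7.66e-15). In EMCN- LT-HSCs Gimap6 was at 134, 165 and 169 CPM, and the log2 difference from GMPs was 5.78 ± 0.20 (edgeR adjusted p = 3.49e-14). Gimap1 was at 108.5, 120, 123 and 114 CPM in the EMCN+ libraries, compared with 5.52, 2.12, 4.33 and 4.48 CPM in those of GMPs, again with no overlap. Its log2 difference was 4.82 ± 0.18 for EMCN+ LT-HSCs over GMPs (edgeR adjusted p = 5.995e-15) and 4.46 ± 0.18 for EMCN- LT-HSCs over GMPs (edgeR adjusted p = 6.29e-14).

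Gimap8 and Gimap5 were near the counting floor in GMPs and passed the low-count filter through LT-HSC libraries alone, so their differences are given with no test. Gimap8 had 59.9, 65.1, 64.4 and 63.5 CPM in the EMCN+ libraries, compared with 0, 0.163, 0.683 and 0.187 CPM in the GMP libraries, which is 5 counts over the 4 GMP libraries. Its log2 difference was 8.02 ± 0.28 for EMCN+ LT-HSCs over GMPs and 7.29 ± 0.31 for EMCN- LT-HSCs over GMPs (SE). Without the GMP library of mouse 3 these log2 differences were 8.93 for EMCN+ LT-HSCs and 8.20 for EMCN- LT-HSCs. Gimap5 had 44.5, 42.1, 47.0 and 43.8 CPM in the EMCN+ libraries, compared with 0.789, 0.490, 0 and 0.373 CPM in the GMP libraries, or 10 GMP counts in all. No GMP library came near an LT-HSC library for either gene, and the log2 difference of Gimap5 was 6.57 ± 0.27 for EMCN+ LT-HSCs over GMPs (SE), and 6.26 to 7.06 when 1 GMP library was left out.

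For 4 members the GMP libraries held 3 counts or fewer. Gimap1os and Gimap3 had 0 GMP counts, and against 3 counts over the GMP group Gimap1os was at least 132-fold higher in EMCN+ LT-HSCs and at least 122-fold higher in EMCN- LT-HSCs. Gimap3, whose product in mice has been tied to mitochondrial DNA segregation in blood cells, was at least 64.4-fold higher in EMCN+ LT-HSCs and at least 20.1-fold higher in EMCN- LT-HSCs by the same bound. Gimap4, whose product hastens T cell death in mice, had 3 GMP counts, giving a ratio of 127 for EMCN+ LT-HSCs over GMPs (exact 95% counting interval 43.2 to 616) and of 34.0 for EMCN- LT-HSCs over GMPs (11.2 to 168.5). Gimap7, whose human protein is a GTPase that works as a dimer, had 1 GMP count and a ratio of 50.2 for EMCN+ LT-HSCs (8.78 to 2005). Of these counts, 2 of the 3 of Gimap4 and the 1 of Gimap7 lay in the GMP library of mouse 2. The intervals and bounds cover counting error only.

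Gimap9, the member without a well-described role, had the most RNA in GMPs. Its level was 37.5, 27.1, 34.9 and 29.3 CPM in the EMCN+ libraries of mice 1 to 4 and 32.6, 31.3 and 39.0 CPM in the EMCN- libraries of mice 1, 2 and 4, against 21.1, 7.34, 14.3 and 10.6 CPM in the GMP libraries. The groups did not overlap, and the lowest EMCN+ library, that of mouse 2, lay not far above the highest GMP library, that of mouse 1. The log2 difference was 1.27 ± 0.24 for EMCN+ LT-HSCs over GMPs (edgeR adjusted p = 0.000296) and 1.35 ± 0.26 for EMCN- LT-HSCs over GMPs (edgeR adjusted p = 0.000407), the smallest of the 9 members in both comparisons. Of 472 GMP counts for the family, 299 were of Gimap9, 91 of Gimap1 and 63 of Gimap6.

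The make-up of the family's RNA differed accordingly. Gimap9 held 12.5 ± 2.55% of the summed per-length level in the 7 LT-HSC libraries (9.195 to 15.7%), against 71.0 ± 3.36% in the 4 GMP libraries (67.9 to 74.1%). The 7 LT-HSC libraries come from 4 mice, 3 of which gave both fractions, so these shares are given as a description with no test. The shares described were chosen after the values were seen. The 3 share tests computed took libraries of the same mouse as independent, so their p-values are left out. Between the LT-HSC fractions, Gimap4 held 4.37 ± 1.04% in EMCN+ LT-HSCs (SD, 4 libraries) and 1.48 ± 0.536% in EMCN- LT-HSCs (3 libraries). Gimap9 held 10.8 ± 1.67% in EMCN+ LT-HSCs and 14.7 ± 1.64% in EMCN- LT-HSCs.

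**Figure D3:**
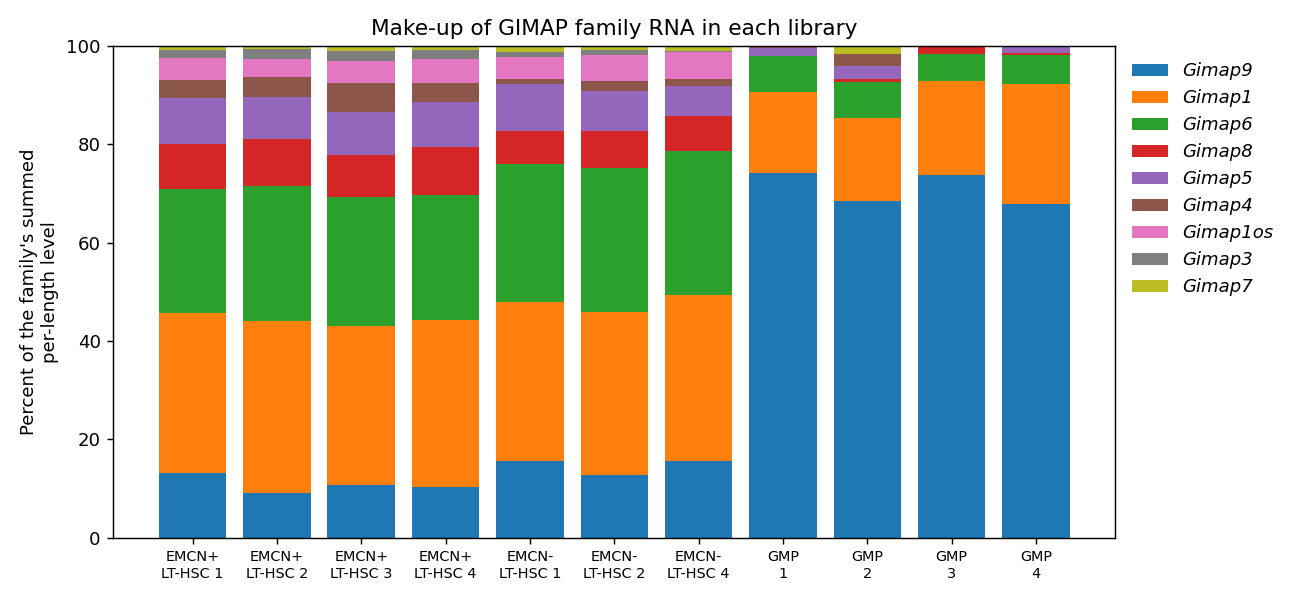
Share of each GIMAP gene in the family's summed per-length level, in percent, for each of the 11 libraries (stacked bars, EMCN+ LT-HSCs left, EMCN- LT-HSCs in the middle, GMPs right). Gimap9 fills 67.9 to 74.1% of the GMP bars and 9.195 to 15.7% of the LT-HSC bars.

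Setting the EMCN+ fraction beside the EMCN- fraction asks how the family differs within the stem cell gate. Gimap4 and Gimap8 were higher in EMCN+ LT-HSCs, and no member was called lower. Neither passed without the EMCN- library of mouse 1. These 2 of 9 members called higher stand beside 0.771% of all genes tested that were called higher and 1.19% that were called lower. For 5 members, Gimap1, Gimap3, Gimap4, Gimap5 and Gimap8, every EMCN+ library lay above every EMCN- library, a pattern shown by 7.25% of all genes tested. The median log2 difference over the 9 members was 0.36, against 0 over all genes. Of 11 markers of LT-HSCs, 4 (Mllt3, Procr, Mecom and Fgd5) were called higher in EMCN+ than in EMCN- LT-HSCs and 0 lower, with 7 at an unadjusted p under 0.05 and a median log2 difference of 0.60. Their part in the GIMAP differences was not tested.

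Gimap4 was at 14, 15.3, 25.2 and 14.3 CPM in the EMCN+ libraries of mice 1 to 4, against 2.75, 6.62 and 4.46 CPM in the EMCN- libraries of mice 1, 2 and 4. The groups did not overlap, the EMCN+ library of mouse 3 stood above its group, and within mice 1, 2 and 4 the ratio of EMCN+ over EMCN- was 5.08, 2.31 and 3.20. The log2 difference was 1.90 ± 0.34 (SE; edgeR adjusted p = 0.00665). Without the EMCN- library of mouse 1 the adjusted p was 0.0643, and without the EMCN+ library of mouse 3 it was 0.0289.

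Gimap8 was at 59.9, 65.1, 64.4 and 63.5 CPM in the EMCN+ libraries and at 31.5, 41.5 and 41.8 CPM in the EMCN- libraries. The EMCN+ values were tight and lay above all EMCN- values, with within-mouse ratios of EMCN+ over EMCN- of 1.90, 1.57 and 1.52 in mice 1, 2 and 4. Its log2 difference was 0.73 ± 0.16 (edgeR adjusted p = 0.0180). The adjusted p was 0.165 without the EMCN- library of mouse 1 and 0.0734 without the EMCN+ library of mouse 2.

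Gimap3 had 6.95, 9.28, 9.91 and 8.40 CPM in the EMCN+ libraries, against 3.37, 3.55 and 0.470 CPM in the EMCN- libraries, the last of which is 2 counts. The groups were separate, and the log2 difference of 1.75 ± 0.47 did not pass (edgeR adjusted p = 0.0690). Gimap3 reached the low-count cutoff in 4 EMCN+, 2 EMCN- and 0 GMP libraries. It thus entered the test through EMCN+ libraries, where it was higher, and its adjusted p is a description. Over 22 alternative fits the adjusted p ran from 0.00761 to 0.2165 and passed in 7. Part of its sequence is shared with Gimap5, as given above.

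**Figure D4:**
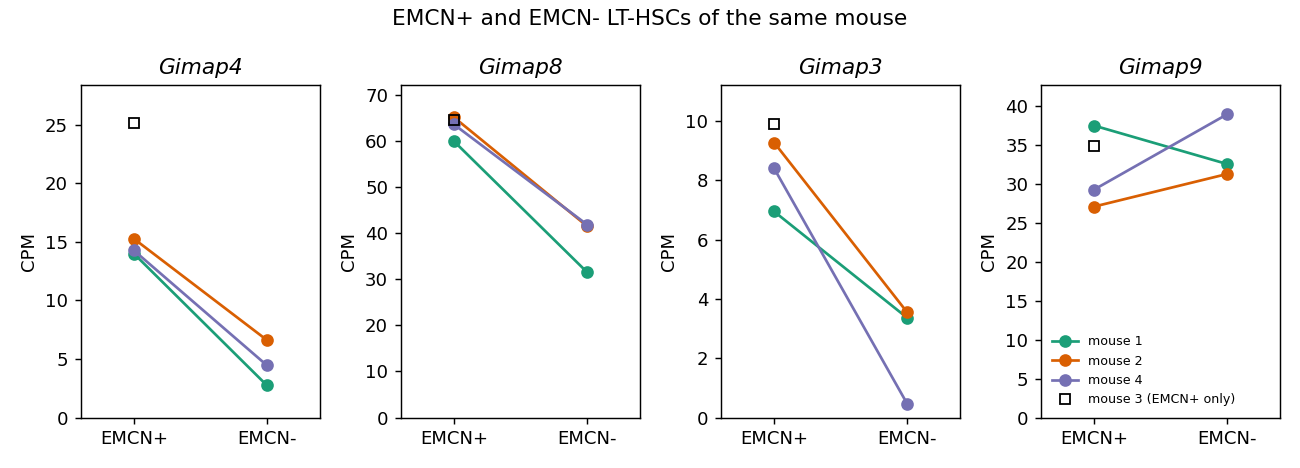
CPM of Gimap4, Gimap8, Gimap3 and Gimap9 in EMCN+ and EMCN- LT-HSCs, with lines joining the fractions of mice 1, 2 and 4 and an open square for the EMCN+ library of mouse 3, which has no partner. The lines run down from EMCN+ to EMCN- in 3 of 3 mice for Gimap4, Gimap8 and Gimap3 and in 1 of 3 for Gimap9.

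Gimap5 averaged 44.3 ± 2.03 CPM in EMCN+ LT-HSCs and 31.2 ± 4.68 CPM in EMCN- LT-HSCs, a log2 difference of 0.50 ± 0.17 (edgeR adjusted p = 0.160). Gimap1 averaged 116 ± 6.37 CPM in EMCN+ LT-HSCs and 90.8 ± 11.01 CPM in EMCN- LT-HSCs, a log2 difference of 0.36 ± 0.14 (edgeR adjusted p = 0.241). Both were higher in EMCN+ in 3 of 3 mice without passing the test over all genes. When mice 1, 2 and 4 alone were fitted as pairs (6 libraries, mouse as a block), 5 members were called instead of 2, with edgeR adjusted p of 0.000755 for Gimap4, 0.00113 for Gimap8, 0.0249 for Gimap3, 0.0374 for Gimap5 and 0.0493 for Gimap1. The same fit called 908 of 13435 genes, 380 higher (2.83%) and 528 lower (3.93%), against 293 of 14915 in the fit of all 11 libraries. It also left out the GMP libraries and mouse 3, and mouse as a block over all 11 libraries called 2 members (Gimap3 adjusted p = 0.102) while the 7 LT-HSC libraries without a block called 3 (Gimap3 adjusted p = 0.0402, by edgeR in both). The values of Gimap3 here remain a description, for the filter limit given above.

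The remaining 4 members showed small differences. The log2 difference of EMCN+ over EMCN- LT-HSCs was 0.20 ± 0.15 for Gimap6 (edgeR adjusted p = 0.605), 0.13 ± 0.22 for Gimap1os (0.866), 0.03 ± 0.56 for Gimap7 (0.990) and -0.09 ± 0.24 for Gimap9 (0.930). Their fractions overlapped, and the standard error of Gimap7, which had 1.74 to 3.01 CPM in LT-HSCs, leaves room for a difference of either sign. Gimap9 turned to a log2 difference of 0.025 when libraries were scaled by total counts.

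**Figure D5:**
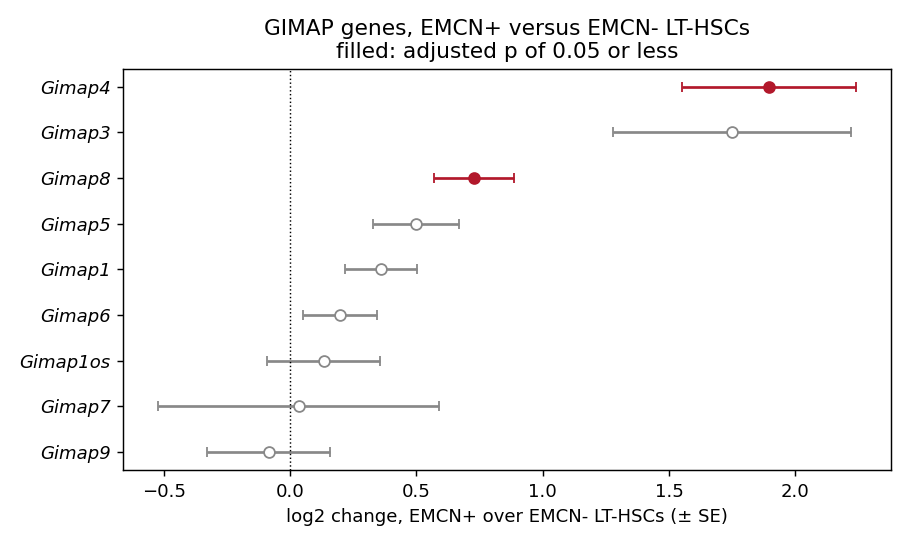
Log2 change of EMCN+ over EMCN- LT-HSCs ± SE for the 9 GIMAP genes (edgeR; 4 EMCN+ and 3 EMCN- libraries), filled where the adjusted p was 0.05 or less. Gimap4 (1.90) and Gimap8 (0.73) are filled, and Gimap3 (1.75) has a wide error bar.

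Markers of other cells known for GIMAP expression were read in the same libraries. The sum of 16 T cell markers was 17.2 to 31.2 CPM in EMCN+ LT-HSCs, 27.45 to 28.9 CPM in EMCN- LT-HSCs and 5.22 to 7.74 CPM in GMPs. Cd3e, Cd2 and Zap70 were at 0 counts in all 11 libraries, and Trac had 1 count in all. Lck, a kinase of T cells, averaged 4.45 CPM in EMCN+ LT-HSCs, 4.63 CPM in EMCN- LT-HSCs and 0.917 CPM in GMPs. Of the 3 T cell markers tested, Lat, Lck and Cd4, all 3 were called higher in each LT-HSC fraction than in GMPs. In GMPs Lat held 25 counts in all, Lck 20 and Cd4 22. They passed the low-count filter through LT-HSC libraries alone, where they were higher, so these calls are a description. Among all genes tested, 31.9% were called higher in EMCN+ LT-HSCs than in GMPs and 28.3% in EMCN- LT-HSCs than in GMPs. Between EMCN+ and EMCN- LT-HSCs 0 of the 3 markers were called (0 at an unadjusted p under 0.05, and DESeq2 and limma-voom called 0). Lat, an adaptor of T cell receptor signalling, averaged 14.2 CPM in EMCN+ LT-HSCs, 16.6 CPM in EMCN- LT-HSCs and 1.15 CPM in GMPs. Cd4 averaged 2.69 CPM in EMCN+ LT-HSCs, 4.44 CPM in EMCN- LT-HSCs and 0.960 CPM in GMPs. The sum of 11 B cell markers was 8.99 to 14.8 CPM in EMCN+ LT-HSCs, 7.28 to 15.2 CPM in EMCN- LT-HSCs and 65.7 to 100.6 CPM in GMPs, where Ighm at 56.65 CPM and Cd79b at 19.7 CPM made up most of it. The sum of 9 NK cell markers was 4.25 to 5.86 CPM in EMCN+ LT-HSCs, 1.41 to 2.91 CPM in EMCN- LT-HSCs and 4.26 to 7.97 CPM in GMPs. In each LT-HSC fraction Ncr1, Klrd1, Klre1 and Gzma were at 0 counts. Klrb1c, which encodes NK1.1, averaged 4.65 CPM in EMCN+ LT-HSCs, 1.84 CPM in EMCN- LT-HSCs and 0.455 CPM in GMPs, and was called higher in each LT-HSC fraction than in GMPs. Klrk1, which encodes NKG2D, averaged 0.0174 CPM in EMCN+ LT-HSCs, 0.255 CPM in EMCN- LT-HSCs and 4.97 CPM in GMPs, and was called lower in each fraction. Klrb1c, with 11 GMP counts in all, passed the low-count filter through LT-HSC libraries alone, and Klrk1 through GMP libraries alone. Their calls against GMPs are thus a description. Klrb1c and Klrk1 are the 2 NK markers tested. Between EMCN+ and EMCN- LT-HSCs edgeR called 0 of them, with both at an unadjusted p under 0.05, while DESeq2 and limma-voom called 0. The part of T, B and NK cell RNA in the GIMAP differences was not tested.

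Of all genes tested, 31.9% were called higher and 29.4% lower in EMCN+ LT-HSCs than in GMPs. For EMCN- LT-HSCs these shares were 28.3% and 24.4%. Of 15 endothelial markers tested, 11 were called higher and 2 lower in each LT-HSC fraction than in GMPs. The 2 were Pecam1, at 45.95 CPM in EMCN+ LT-HSCs, 48.2 CPM in EMCN- LT-HSCs and 61.0 CPM in GMPs, and Flt1, at 0.435 CPM in EMCN+ LT-HSCs, 0.4965 CPM in EMCN- LT-HSCs and 9.13 CPM in GMPs. Among the higher markers Esam and Sox18 had 0 GMP counts, Robo4 and Clec14a 2 each, Kdr 3 and Emcn 10. Such markers passed the low-count filter through LT-HSC libraries alone, and Flt1 through GMP libraries alone. The numbers called against GMPs are thus a description. The sum of all 21 endothelial markers, Emcn and Vwf among them, was 562 to 742 CPM in EMCN+ LT-HSCs, 406 to 480.5 CPM in EMCN- LT-HSCs and 101.5 to 127 CPM in GMPs. Of the 15 tested, 1 was called higher in EMCN+ than in EMCN- LT-HSCs, Vwf, a clotting factor also made by stem cells, at 129 CPM in EMCN+ LT-HSCs and 49.8 CPM in EMCN- LT-HSCs. In that comparison 7 of the 15 were at an unadjusted p under 0.05, and DESeq2 and limma-voom each called 2. The median log2 difference of the 15 was 0.39. Of all 14915 genes, edgeR called 0.771% higher and 1.19% lower there, and DESeq2 called 451 and limma-voom 374 in either direction. The defining endothelial gene Cdh5 averaged 0.806 CPM in EMCN+ LT-HSCs, 0.180 CPM in EMCN- LT-HSCs and 0 in GMPs, and Cldn5 averaged 1.32 CPM in EMCN+ LT-HSCs and had 0 counts in EMCN- LT-HSCs and in GMPs. Of the 21 markers, 0 were at 0 in EMCN+ LT-HSCs, 3 (Cldn5, Mmrn2 and Sox17) in EMCN- LT-HSCs and 6 in GMPs. The part of endothelial RNA in the GIMAP differences was not tested.

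Genes around the cluster were examined out to 500 kb on each side. Of the 49 neighbours counted, 16 were tested, and 2 of those lie inside the cluster. The lincRNA 4833403J16Rik averaged 10.03 ± 1.07 CPM in EMCN+ LT-HSCs, 5.80 ± 0.826 CPM in EMCN- LT-HSCs and 0.231 ± 0.100 CPM in GMPs. Gm28053 averaged 24.96 ± 2.00 CPM in EMCN+ LT-HSCs, 23.6 ± 2.77 CPM in EMCN- LT-HSCs and 0.495 ± 0.671 CPM in GMPs. Outside the cluster 7 of 14 were called higher and 3 lower in EMCN+ LT-HSCs than in GMPs, with a median log2 difference of 1.09. Over all genes tested in that comparison, 31.9% were higher and 29.4% lower, with a median of 0.04. Gm5111 and AI854703, at 0.0569 and 0.582 CPM in GMPs, passed the low-count filter through LT-HSC libraries alone. Gm7887, which was lower, passed it through GMP libraries. The calls of these genes are a description. Zfp467, a zinc finger gene, averaged 45.7 ± 4.58 CPM in EMCN+ LT-HSCs, 34.7 ± 3.23 CPM in EMCN- LT-HSCs and 3.18 ± 0.555 CPM in GMPs. Tmem176b, a membrane protein gene, averaged 174 ± 11.9 CPM in EMCN+ LT-HSCs, 148 ± 4.03 CPM in EMCN- LT-HSCs and 45.0 ± 1.96 CPM in GMPs. Both were called higher in each LT-HSC fraction than in GMPs. Between EMCN+ and EMCN- LT-HSCs edgeR called 0 of the 16, with 6 at an unadjusted p under 0.05, and DESeq2 and limma-voom each called 0.

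Genes that work with GIMAP proteins, or belong to other GTPase families, were read beside them. None of the 5 lists had a member called between EMCN+ and EMCN- LT-HSCs by edgeR, so what follows is first on LT-HSCs and GMPs. Against GMPs 61.3% of all genes tested were called in EMCN+ LT-HSCs, 31.9% higher and 29.4% lower. In EMCN- LT-HSCs 52.7% were called against GMPs, 28.3% higher and 24.4% lower. Of 10 tested genes of the BCL2 family, which controls cell death, 3 were higher and 6 lower in EMCN+ LT-HSCs than in GMPs (median log2 -0.67, against 0.04 over all genes). The pro-survival genes Mcl1, at 182 CPM in EMCN+ LT-HSCs and 117 CPM in GMPs, and Bcl2l1, at 29.6 CPM in EMCN+ LT-HSCs and 12.2 CPM in GMPs, were higher. The death genes Bid, at 12.4 CPM in EMCN+ LT-HSCs and 68.4 CPM in GMPs, and Bax, at 7.88 CPM in EMCN+ LT-HSCs and 19.6 CPM in GMPs, were lower. Of 11 genes of the autophagy group around GABARAP, to which GIMAP6 binds, 2 were higher and 6 lower (median log2 -0.33). Gabarapl1 rose to 99.5 CPM in EMCN+ LT-HSCs and 78.2 CPM in EMCN- LT-HSCs while GMPs held 21.6 CPM, whereas Atg12 was lower, at 33.3 CPM in EMCN+ LT-HSCs, 32.15 CPM in EMCN- LT-HSCs and 90.3 CPM in GMPs.

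Of 5 genes of GSK3 and β-catenin, a pathway tied to GIMAP5 in mice, 3 were higher in EMCN+ LT-HSCs than in GMPs (median log2 0.53), namely Apc, Ctnnb1 and Gsk3b. Ctnnb1, which encodes β-catenin, averaged 204 CPM in EMCN+ LT-HSCs and 142 CPM in GMPs. Septins, GTP-binding filament proteins, were divided, with 5 of 12 higher and 5 lower (median log2 0.29). Sept8 averaged 58.7 CPM in EMCN+ LT-HSCs and 9.21 CPM in GMPs, and Sept11 averaged 57.8 CPM in EMCN+ LT-HSCs and 107 CPM in GMPs.

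The interferon-inducible GTPases of the IRG and GBP families, which act in defence inside cells, differed in 1 direction. Of 17 tested, 16 were higher in EMCN+ LT-HSCs than in GMPs (median log2 3.78), and 16 in EMCN- LT-HSCs than in GMPs (median log2 3.53, or 3.39 with the 2 genes at 0 in GMPs set to 3 counts). Over all genes tested, 31.9% and 28.3% were called higher in these comparisons. The 2 genes at 0 in GMPs passed the low-count filter through LT-HSC libraries alone, so their differences are a description. Gbp2 averaged 71.9 CPM in EMCN+ LT-HSCs, 60.7 CPM in EMCN- LT-HSCs and 5.215 CPM in GMPs. Irgm2 averaged 77.1 CPM in EMCN+ LT-HSCs, 59.1 CPM in EMCN- LT-HSCs and 9.715 CPM in GMPs. Between EMCN+ and EMCN- LT-HSCs edgeR called 0 of 17, with 6 at an unadjusted p under 0.05, DESeq2 called 3 and limma-voom 2. Of all 14915 genes in that comparison, DESeq2 called 451 and limma-voom 374. Gbp8 had the smallest p, at 22.9 CPM in EMCN+ LT-HSCs and 12.95 CPM in EMCN- LT-HSCs (edgeR adjusted p = 0.0768). At an unadjusted p under 0.05 there were 0 BCL2 genes, 3 autophagy genes, 0 GSK3 and β-catenin genes and 2 septins in that comparison, and DESeq2 and limma-voom called 0 in each of these 4 lists.

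The genes most like the family were taken as those with the smallest root mean square difference between log2 CPM profiles, each centred on its own mean, over the 11 libraries. Of 9927 candidates at a mean of at least 5 CPM, Camsap3, which binds microtubule ends, came first with a difference of 0.233 from the summed family, against a median of 2.17 over all candidates. It averaged 17.6 ± 1.45 CPM in EMCN+ LT-HSCs, 14.9 ± 2.855 CPM in EMCN- LT-HSCs and 0.623 ± 0.251 CPM in GMPs. Coro2b (0.270), Art4 (0.288), Vipr2 (0.297) and Csgalnact1 (0.308) followed. Art4, which carries the Dombrock blood group in humans, averaged 68.0 ± 4.17 CPM in EMCN+ LT-HSCs, 52.2 ± 3.49 CPM in EMCN- LT-HSCs and 2.41 ± 0.721 CPM in GMPs.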

How the data were processed

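RNA was sequenced from 11 bulk libraries of sorted mouse bone marrow cells, 3000 to 5000 LT-HSCs a sample, prepared with the SMARTer pico kit for stranded total RNA, per the labels. The labels give the molecule as polyA RNA. Estimated counts of each gene were deposited, which the authors made with Salmon after trimming with cutadapt, per the submitters' processing notes; versions, build, annotation and strand setting are not given in the sources used here. Rounded counts were fitted over all 11 libraries with edgeR 4.0.16 (R 4.3.3; TMM factors, filterByExpr at a minimum count of 10, robust quasi-likelihood test, SE from the F statistic), leaving 14915 genes with 99.7% of counts; p-values were adjusted by Benjamini-Hochberg. Log2 CPM profiles used a prior count of 2. Of 54347 identifiers 53307 matched GENCODE M21 with version. DESeq2 1.42.0 and limma 3.58.1 (voom) were alternatives, with other scalings and filters, protein-coding genes alone, LT-HSC libraries alone, a mouse block and each library left out. Depth was 3.63 to 11.1 M counts, without molecular identifiers.

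The members and lists were chosen with earlier results of these data known. Named genes were all 9 members, up to 4 called genes per list and comparison by smallest p or up to 2 where none was called, and the 5 most alike; not all allowed were named, Gm28053 and single markers were chosen after values were seen, and the shares of family RNA were added then too. No protein sequences were used here.

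Mouse numbers in the labels mark libraries from the same animal. Same-mouse deviations from group means correlated at 0.165 to 0.223 in 3 pairs of EMCN+ and EMCN- LT-HSCs, 0.105 to 0.150 in 3 pairs of EMCN- LT-HSCs and GMPs, and -0.0606 to 0.0613 in 4 pairs of EMCN+ LT-HSCs and GMPs. Between different mice the ranges, in the same order, were -0.246 to 0.190 (9 pairs), -0.168 to 0.0623 (9 pairs) and -0.172 to 0.1605 (12 pairs). Counts of replicates differed by more than sampling noise (chi-square over its degrees of freedom 8.09 to 33.6). On simulated data of 14915 genes for EMCN+ versus EMCN- LT-HSCs the test recovered 19.4% of genes changed 1.5-fold, 58.2% at 2-fold and 72.7% at 4-fold. Among the recovered genes were 13 changed 1.5-fold, 39 changed 2-fold and 48 changed 4-fold, and 13 unchanged genes were called as well. The simulated libraries held no mouse effect and, beyond the changed genes, no difference between the groups, unlike the real ones.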

Additional observations from a re-analysis of the deposited data

Results flagged for a closer look

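Of 16 groups of 4 libraries examined for a sample far from the others, 2 were marked. Chance marks about 1 in 20 for continuous values of normal spread, a rate that does not hold for counts near 0. Gimap4 was at 25.2 CPM in the EMCN+ library of mouse 3, against 14, 14.3 and 15.3 CPM in the other EMCN+ libraries, and mouse 3 has no EMCN- library to set beside it. Gimap7 was at 0.163 CPM in the GMP library of mouse 2, which is 1 count, against 0 in the other GMP libraries. The rule always marks a group with counts in only 1 of 4 libraries.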

How the results depend on the processing

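Of 552 member results under 22 alternatives, 532 kept their direction and side of the threshold, 9 passed it newly, 3 no longer passed and 8 changed sign. Against GMPs the calls of Gimap1, Gimap6 and Gimap9 held in all 20 alternatives. The 293 genes called between EMCN+ and EMCN- LT-HSCs became 529 with no low-count filter, 451 with DESeq2 and 454 with protein-coding genes alone. Leaving out 1 library gave 55 to 338 genes and 0 to 2 members, with 55 and 0 without the EMCN- library of mouse 1, 105 and 1 without the EMCN+ library of mouse 2, and 184, 194 and 191 genes without the EMCN+ library of mouse 4 and the EMCN- libraries of mice 2 and 4. Mouse as a block in all 11 libraries gave 374 genes and 2 members, and in the 6 paired libraries 908 genes and 5 members. The paired fit also lacks the GMP libraries and mouse 3, and the 7 LT-HSC libraries with no block gave 269 genes and 3 members. Changes of sign, all uncalled, on the log2 scale, were Gimap7 at -0.034 with limma-voom, -0.083 with the block and -0.12 in the paired libraries with the block, and Gimap9 at 0.025 with total-count scaling. Leaving out 1 library gave -0.033 to 0.24 for Gimap1os, -0.12 to 0.16 for Gimap7 and -0.17 to 0.011 for Gimap9; the cause was not tested. Total-count scaling moved the median log2 of all genes by 0.11 between LT-HSC fractions, with 161 genes higher and 50 lower against 115 and 178, and to 0.86 for EMCN+ and 0.75 for EMCN- LT-HSCs over GMPs, with 8973 higher and 1877 lower against 4760 and 4386, and 8209 and 1473 against 4222 and 3637; every member stayed higher than in GMPs by more than these medians. Gimap7 was not tested at 5 CPM and Gimap1os not among protein-coding genes. Counts of 10 or fewer in GMPs limit the ratios of Gimap1os, Gimap3, Gimap4, Gimap5, Gimap7 and Gimap8.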
